A study of Mus musculus with 36 samples.

Results

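The mouse Toll-like receptors Tlr1, Tlr2, Tlr3, Tlr4, Tlr5, Tlr6, Tlr7, Tlr8, Tlr9 and Tlr13 were taken as a family by name, and each was read from the transcript cluster of the array that is annotated to that gene alone. Of these 10 receptors, 9 had such a cluster, 1 each, among the 19938 genes read in this way. Tlr5, the receptor for bacterial flagellin, had no cluster annotated to it alone and is not analysed here. The levels are log2 values of the deposited array intensities, so a difference of 1 is a doubling, and levels were compared between samples but not between genes.

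Toll-like receptors are membrane proteins of innate immune cells that bind conserved molecules of microbes and signal through adaptor proteins to NF-kB and to interferon regulatory factors. Tlr1, Tlr2, Tlr4, Tlr5 and Tlr6 act mainly at the cell surface, where they bind lipoproteins, lipopolysaccharide or flagellin, while Tlr3, Tlr7, Tlr8, Tlr9 and Tlr13 act in endosomes and bind nucleic acids. In dendritic cells (DCs) their signals start maturation and cytokine release, and the endosomal receptors depend on the chaperone Unc93b1 to leave the endoplasmic reticulum.

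All cells were DCs grown from bone marrow of young adult Balb/c mice in GM-CSF (granulocyte-macrophage colony-stimulating factor, 100 ng/ml) and harvested on day 6, and the treated cultures also received soluble human thrombomodulin (sTM) at 200 nM from day 4. Some cultures were then divided with an antibody against thrombomodulin (TM) and magnetic beads into cells that carry it (TM+ DCs) and cells that do not (TM- DCs). With sTM, each fraction was measured on 6 arrays from experiments 2, 3 and 4, and without it on 4 arrays from experiments 3 and 4. Unsorted DCs were measured on 8 arrays of sTM-treated and 8 of untreated cultures from experiments 1, 2 and 3. Arrays are named by experiment and number, so that array 3-2 is number 2 of experiment 3. Arrays of a group are labelled biological replicates without a statement of whether each came from its own mouse or culture, and the p-values therefore measure the spread between these arrays. The fit gave each experiment its own level but not its own difference between groups. Arrays of the same experiment thus counted as separate values of a difference, although they were more alike than arrays of different experiments.

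The DC marker Itgax lay between 11.72 and 12.35 on all 36 arrays, and the macrophage marker Adgre1 lay between 11.57 and 12.79. Of 10 DC markers, 6 were higher in TM+ than in TM- DCs, among them Ciita at 0.82, and 2 were lower, Batf3 at -1.05 and Zbtb46 at -0.38 (median 0.30). Granulocyte markers moved with the sort, with 8 of 9 higher in TM+ than in TM- DCs (median log2 difference 1.92), and so did 5 of 7 macrophage markers (median 0.68). The mean level of the granulocyte list ran from 7.19 to 9.29 in sTM-treated TM+ DCs and from 9.08 to 10 in untreated TM+ DCs, against 6.61 to 7.86 in sTM-treated and 7.19 to 7.92 in untreated TM- DCs. Of 4 measured monocyte markers, 2 were higher and 1 lower, with Ccr2, the chemokine receptor of inflammatory monocytes, at 4.04. Plasmacytoid DC markers were higher in 0 of 6 cases and lower in 2, and those of B cells were called in 0 of 4. Beside these counts, 18.6% of all genes were called higher and 18.7% lower in TM+ DCs, at a limma adjusted p under 0.05. The transcript of thrombomodulin itself, Thbd, was measured beside a sort that read the protein, and it was not called between TM+ and TM- DCs (log2 difference 0.24 ± 0.12, SE, limma adjusted p = 0.12). Its group means in sorted DCs ran from 5.88 to 6.30, a low signal in which a difference can be missed. Within a group and experiment, sorted arrays correlated at 0.968 to 0.997 over all clusters, the lowest being that of TM- DCs with sTM in experiment 3. The median was 0.993 there and 0.961 between arrays of a group from different experiments. What part these markers have in the differences between receptors was not tested, and in RNA from many cells a smaller share of one cell type cannot be told apart from less RNA per cell.

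In TM+ DCs, 4 of the 5 endosomal receptors were higher than in TM- DCs (Tlr7, Tlr8, Tlr9 and Tlr13), and 2 of the 4 measured surface receptors were lower (Tlr1 and Tlr6). The remaining 3, Tlr2, Tlr3 and Tlr4, were not called at a limma adjusted p under 0.05. Over all genes, 37.3% were called in this comparison, 18.6% higher and 18.7% lower, so that a call by itself is common here. The median log2 difference was 0.67 for the 5 endosomal receptors and -0.31 for the 4 surface receptors, and -0.08 over all genes.

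**Figure D1:**
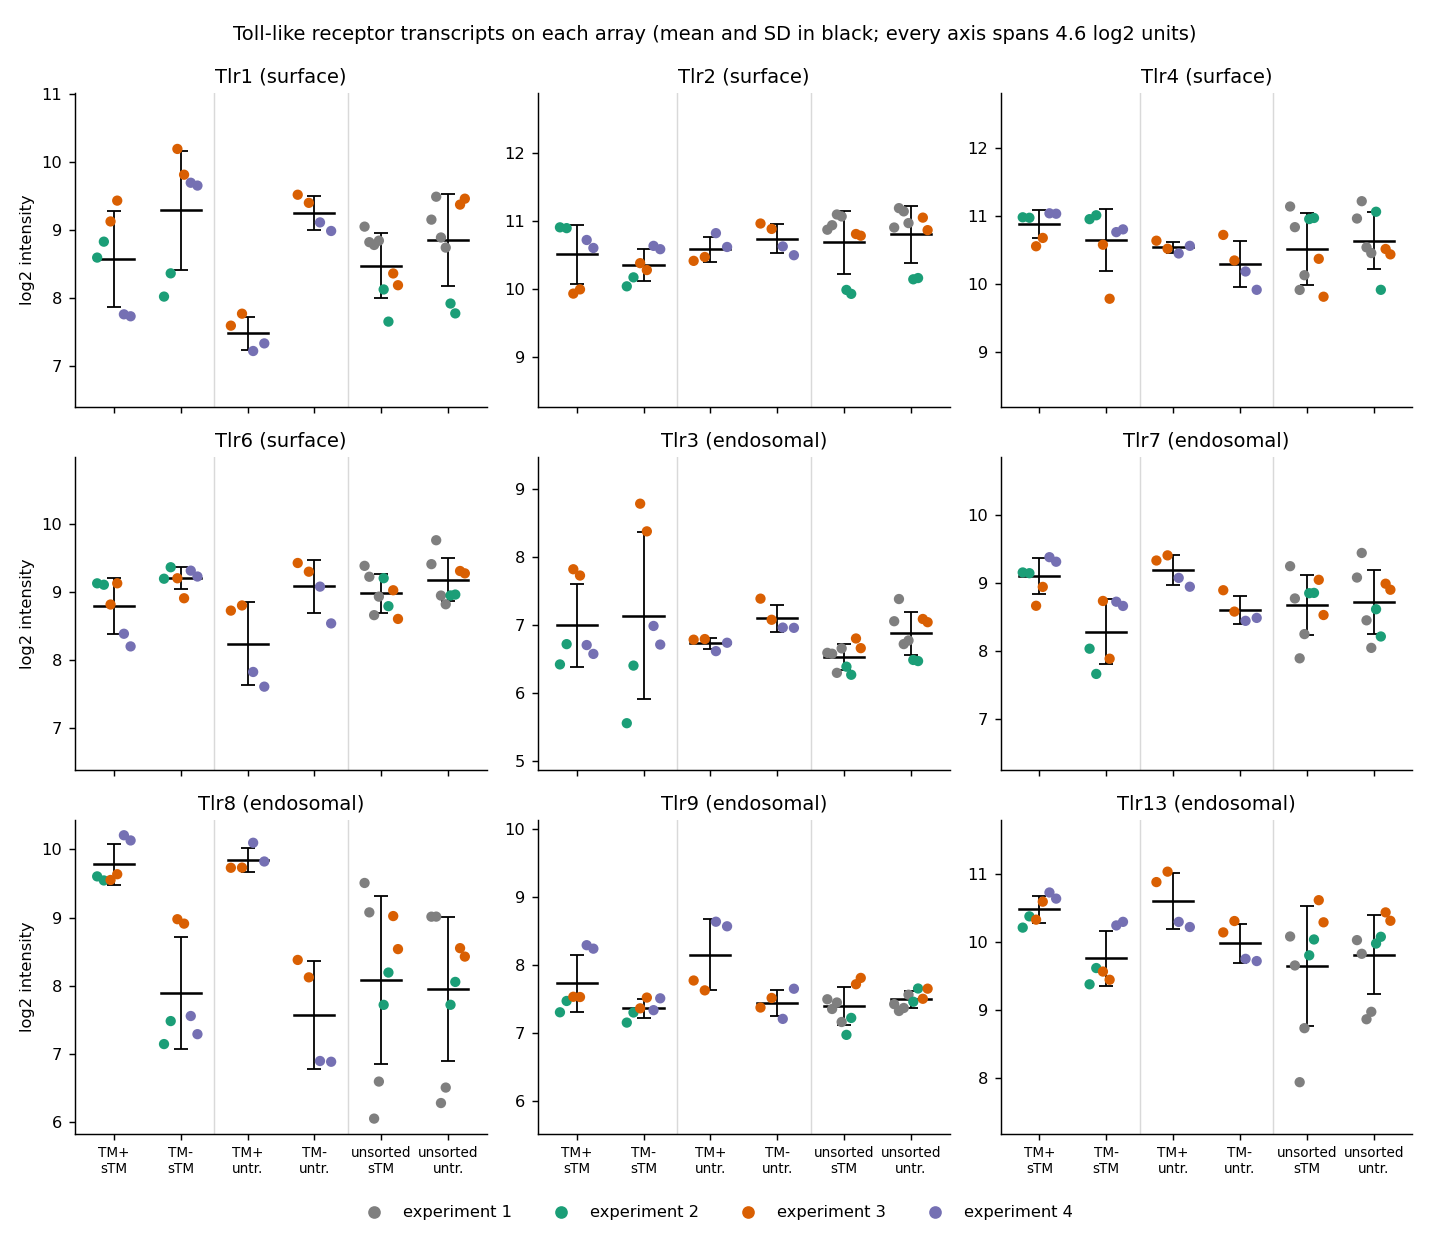
log2 intensity of 9 Toll-like receptor transcripts on each of the 36 arrays (y axis) by group (x axis), with points coloured by experiment and the mean and SD of each group in black. The TM+ arrays of Tlr8 all lie above the TM- arrays, whereas those of Tlr1 and Tlr6 mostly lie below them and those of Tlr2 and Tlr4 overlap.

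Tlr8, known from human cells as a sensor of degraded single-stranded RNA, had the largest difference of the family. In TM+ DCs of sTM-treated cultures it ran from 9.54 to 10.21 with a median of 9.62, against 7.14 to 8.98 with a median of 7.52 in TM- DCs. In untreated cultures the 4 TM+ arrays read 9.73, 9.73, 10.10 and 9.82, against 8.38, 8.12, 6.89 and 6.88 in TM- DCs. The TM+ arrays were close to each other in every experiment, the TM- arrays were highest in experiment 3, and the groups did not overlap. Of all genes, 3.17% separated all 10 TM+ from all 10 TM- arrays in this way, 2.2% with TM+ DCs higher and 0.973% with TM+ DCs lower. The log2 difference was 2.08 ± 0.21 (SE, limma adjusted p = 1.39e-07, n = 10 arrays each), which is 4.24-fold, and TM+ DCs were higher in 10 of 10 pairs of arrays with the same experiment, treatment and number. Within experiments the log2 difference was 2.26 in experiment 2, 0.65 and 1.48 in sTM-treated and untreated cultures of experiment 3, and 2.75 and 3.07 in those of experiment 4. Here and below, counts of pairs describe the arrays only, as replicate numbers were not shown to pair them. The 10 pairs come from these 5 comparisons within experiments.

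The start of the Tlr8 gene is shown because it is the member with the largest rise. The window holds 250 bases before and 50 after the RefSeq start site on GRCm38.p6, at chrX:167264280-167264579 on the minus strand, written 5' to 3'.
Tlr8: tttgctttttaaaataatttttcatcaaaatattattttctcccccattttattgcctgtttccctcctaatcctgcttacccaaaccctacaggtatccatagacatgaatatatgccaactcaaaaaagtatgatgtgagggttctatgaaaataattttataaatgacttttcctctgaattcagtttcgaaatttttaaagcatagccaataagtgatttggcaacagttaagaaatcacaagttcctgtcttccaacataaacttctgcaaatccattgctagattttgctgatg
Windows of this kind were at hand for 8 of the 10 receptors, 10 windows in all, and were searched on both strands for a PU.1 core (GAGGAAGT), an interferon-response core (GAAA, any 2 bases, GAAA) and an NF-kB core (GGG, any 2 bases, TTTCC). Tlr4 and Tlr7 had no window. None of these motifs occurs in the Tlr8 window or in those of Tlr13, Tlr2 and Tlr5. Absence is usual, as the PU.1 core occurs in 3.2%, the interferon-response core in 3.43% and the NF-kB core in 1.63% of all 32817 windows. A match or its absence describes this stretch of sequence only.

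Tlr7, which binds single-stranded RNA, and Tlr13, a receptor for bacterial ribosomal RNA found in mice, rose by less. Tlr7 lies beside Tlr8 on chromosome X with 0 protein-coding genes between them in the RefSeq annotation. It read 8.67 to 9.38 (median 9.15) in TM+ DCs of sTM-treated cultures, against 7.66 to 8.74 (median 8.35) in TM- DCs. In untreated cultures the TM+ arrays read 9.33, 9.41, 9.07 and 8.94, against 8.89, 8.58, 8.44 and 8.49 in TM- DCs. The untreated groups did not overlap and the treated ones overlapped by 1 TM+ array of experiment 3. Here and below, the share of all genes that separate the untreated arrays, or the arrays within an experiment, was not computed. Such a separation therefore describes the arrays only. The log2 difference was 0.70 ± 0.13 (SE, adjusted p = 0.000247), with TM+ DCs higher in 9 of 10 pairs and in 5 of 5 comparisons within experiments.

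Tlr13 read 10.21 to 10.72 (median 10.48) in TM+ DCs of sTM-treated cultures, against 9.37 to 10.29 (median 9.59) in TM- DCs. Its untreated TM+ arrays read 10.87, 11.03, 10.29 and 10.21, against 10.14, 10.30, 9.75 and 9.71 in untreated TM- DCs. The level shifted with the experiment in both fractions, yet TM+ DCs were higher in 10 of 10 pairs, by 0.34 to 1.15. The log2 difference was 0.67 ± 0.13 (SE, adjusted p = 0.000362), and it was 0.80 in experiment 2, 0.95 and 0.73 in sTM-treated and untreated cultures of experiment 3 and 0.41 and 0.52 in those of experiment 4.

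Tlr9, the receptor for unmethylated CpG DNA, was also higher in TM+ DCs, by 0.54 ± 0.11 on the log2 scale (SE, adjusted p = 0.000852). Most of this came from experiment 4, where the TM+ arrays read 8.29 and 8.24 with sTM and 8.64 and 8.57 without, against 7.34 and 7.51 with sTM and 7.21 and 7.65 without in TM- DCs. There the difference was 0.84 with sTM and 1.17 without, beside 0.16 in experiment 2 and 0.09 and 0.25 in experiment 3. Without experiment 4 the difference was 0.19 with an adjusted p of 0.261, so this call rests on that experiment.

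Tlr3, which binds double-stranded RNA and signals through Ticam1 rather than Myd88, was the endosomal receptor that was not called. Its log2 difference was -0.25 (95% interval -0.70 to 0.20, adjusted p = 0.351). In untreated cultures the TM+ arrays read 6.79, 6.80, 6.62 and 6.74, all below the TM- arrays at 7.39, 7.08, 6.97 and 6.96, and the difference of -0.36 was not called (adjusted p = 0.508). In sTM-treated cultures it read 6.43 to 7.82 in TM+ DCs and 5.56 to 8.79 in TM- DCs, with the high values of both fractions in experiment 3.

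**Figure D2:**
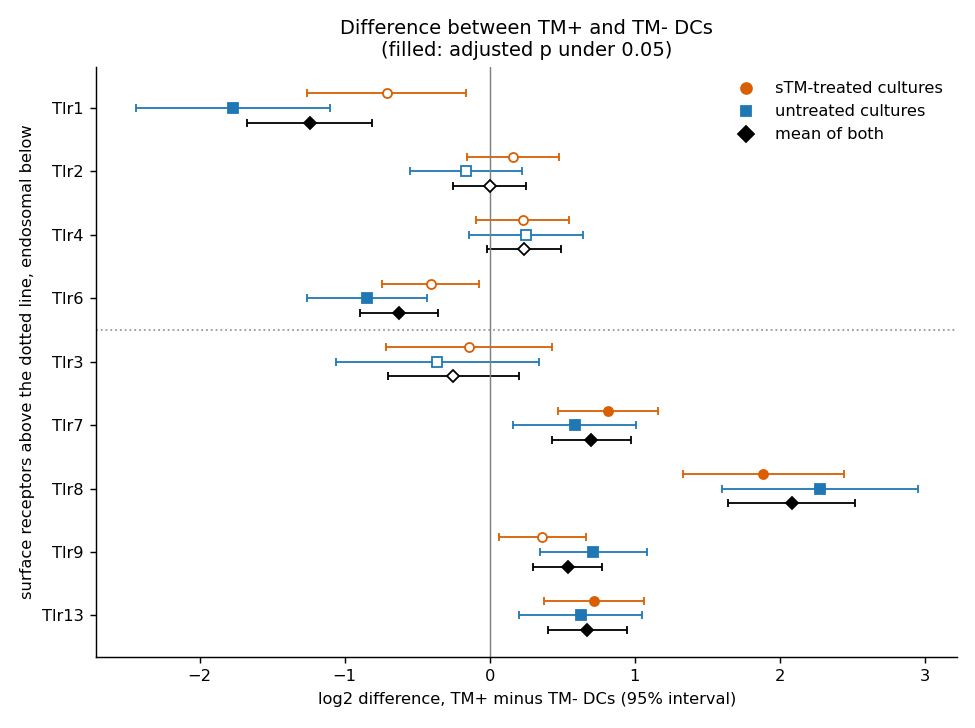
Fitted log2 difference of TM+ minus TM- DCs (x axis, with 95% interval) for each receptor (y axis) in sTM-treated cultures, in untreated cultures and as their mean, with filled symbols at adjusted p under 0.05. The means run from -1.24 for Tlr1 to 2.08 for Tlr8, and those of Tlr2, Tlr3 and Tlr4 have intervals that include 0.

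Tlr1 and Tlr6, which each pair with Tlr2 to bind lipoproteins, were the receptors that fell. They are paralogues that lie side by side on chromosome 5, with 0 protein-coding genes between them, and whether probes of one also read the other was not tested. Tlr1 read 7.73 to 9.43 (median 8.71) in TM+ DCs of sTM-treated cultures, against 8.02 to 10.19 (median 9.68) in TM- DCs. The untreated TM+ arrays read 7.60, 7.77, 7.22 and 7.34, against 9.52, 9.40, 9.11 and 8.99 in untreated TM- DCs. The untreated groups lay far apart, whereas the treated ones overlapped. The log2 difference was -1.24 ± 0.21 (SE, adjusted p = 7.35e-05), that is 2.36-fold lower in TM+ DCs, and lower in 8 of 10 pairs.

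Experiment 2 was the exception for Tlr1, with 8.60 and 8.83 in TM+ DCs and 8.02 and 8.37 in TM- DCs, a log2 difference of 0.52. In the other experiments it was -0.72 and -1.78 in sTM-treated and untreated cultures of experiment 3 and -1.93 and -1.77 in those of experiment 4. Tlr6 read 8.20 to 9.12 (median 8.96) in TM+ DCs of sTM-treated cultures, against 8.90 to 9.36 (median 9.21) in TM- DCs, and 8.72, 8.80, 7.82 and 7.61 in untreated TM+ DCs, against 9.42, 9.29, 9.07 and 8.53 in untreated TM- DCs. Its TM+ arrays were lowest in experiment 4, and within an experiment and treatment the fractions overlapped in sTM-treated cultures of experiment 3 alone. The log2 difference of Tlr6 was -0.63 ± 0.13 (SE, adjusted p = 0.000596), with TM+ DCs lower in 9 of 10 pairs, and it ran from -0.08 in sTM-treated cultures of experiment 3 to -1.09 in untreated cultures of experiment 4.

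The starts of both genes are shown because both were called lower in TM+ DCs and because each holds a different match, in capitals. RefSeq gives 2 windows for each, and the one with a match is printed, for Tlr1 at chr5:64933509-64933808 and for Tlr6 at chr5:64959117-64959416, both on the minus strand of GRCm38.p6.
Tlr1: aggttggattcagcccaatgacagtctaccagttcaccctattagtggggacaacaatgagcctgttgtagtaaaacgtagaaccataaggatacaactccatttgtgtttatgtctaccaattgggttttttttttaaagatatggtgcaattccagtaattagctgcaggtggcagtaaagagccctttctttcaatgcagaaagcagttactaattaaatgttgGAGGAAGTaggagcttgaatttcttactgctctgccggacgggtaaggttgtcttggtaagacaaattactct
Tlr6: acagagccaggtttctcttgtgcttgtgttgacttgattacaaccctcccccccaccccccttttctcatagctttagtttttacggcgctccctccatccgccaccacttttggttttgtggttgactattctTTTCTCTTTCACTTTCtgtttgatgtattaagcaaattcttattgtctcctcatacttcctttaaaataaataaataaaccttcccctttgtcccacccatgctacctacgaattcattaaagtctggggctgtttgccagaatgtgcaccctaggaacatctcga
The capitals mark the PU.1 core at -23 to -16 from the Tlr1 start site, and in Tlr6 a pair of overlapping interferon-response cores on the opposite strand, at -116 to -107 and -110 to -101. The other window of each gene holds none of the searched motifs. Elsewhere in the family, Tlr3 has an NF-kB core at -211 to -202 and Tlr9 a PU.1 core on the opposite strand at 10 to 17.

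Tlr2, the partner of Tlr1 and Tlr6, had a log2 difference of -0.00 (95% interval -0.25 to 0.25, adjusted p = 0.998). It read 9.93 to 10.91 (median 10.66) in TM+ DCs of sTM-treated cultures, against 10.04 to 10.63 (median 10.33) in TM- DCs. The untreated TM+ arrays read 10.41, 10.47, 10.82 and 10.62, against 10.96, 10.88, 10.63 and 10.50 in untreated TM- DCs. Its direction changed with the experiment, at 0.79 in experiment 2, -0.37 and -0.48 in experiment 3 and 0.05 and 0.16 in experiment 4.

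Tlr4, the lipopolysaccharide receptor, had a log2 difference of 0.24 (95% interval -0.02 to 0.49, adjusted p = 0.126). Its TM+ DCs were higher in 7 of 10 pairs and in 4 of 5 comparisons within experiments. It read 10.55 to 11.03 (median 10.97) in TM+ DCs and 9.78 to 11.01 (median 10.78) in TM- DCs of sTM-treated cultures, and 10.63, 10.51, 10.44 and 10.56 in TM+ DCs and 10.72, 10.34, 10.18 and 9.91 in TM- DCs of untreated cultures. These ranges overlapped throughout. Without experiment 3 the difference was 0.29 (adjusted p = 0.00869), without the untreated TM- array 3-1 it was 0.32 (adjusted p = 0.0293), and with arrays weighted by their quality it was 0.28 (adjusted p = 0.00451), so this receptor is close to the threshold.

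Within sTM-treated cultures 3 of the 9 receptors were called, all higher in TM+ DCs (24% of all genes were called, 11.6% higher and 12.4% lower), and within untreated cultures 6 were called, 4 higher and 2 lower (21.1% of all genes, 13.2% higher and 7.93% lower). Tlr8 differed by 1.89 in sTM-treated and 2.28 in untreated cultures, Tlr7 by 0.81 and 0.59, Tlr13 by 0.72 and 0.63 and Tlr9 by 0.36 and 0.71. Tlr1 differed by -0.71 in sTM-treated cultures (adjusted p = 0.0538) and -1.77 in untreated ones (adjusted p = 0.000378), and Tlr6 by -0.41 (adjusted p = 0.0703) and -0.84 (adjusted p = 0.00358). The difference between these differences, which is the interaction of sorting and treatment, was called for 0 of 9 receptors and for 0.01% of all genes. An unadjusted limma p under 0.05 was found for 1227 of the 19938 genes and 1 receptor, Tlr1 (1.06 ± 0.42, SE, unadjusted p = 0.0184, adjusted p = 0.666).

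Several of these calls depend on single arrays or experiments. Without the sTM-treated TM- array 3-2, 5 receptors were called in sTM-treated cultures, with Tlr6 at -0.51 (adjusted p = 0.0257) and Tlr9 at 0.42 (adjusted p = 0.0486) in addition. Without experiment 2, Tlr7 in sTM-treated cultures was 0.57 (adjusted p = 0.0506) and Tlr1 was -1.32 (adjusted p = 0.00175). Without experiment 3, Tlr2 was 0.42 (adjusted p = 0.0296). Tlr1 was also called without any one of TM- 2-1 (-0.93), TM- 2-2 (-0.84), TM+ 2-2 (-0.85) and TM+ 3-2 (-0.80). In untreated cultures Tlr4 was called without experiment 3 (0.46, adjusted p = 0.015) and Tlr9 was not called without experiment 4 (0.25, adjusted p = 0.6). There Tlr7 lost its call without any one of 7 arrays (adjusted p 0.0509 to 0.142) and Tlr13 without any one of 4 (adjusted p 0.0939 to 0.124). These are the TM+ arrays 3-1 and 3-2 and the TM- arrays 4-1 and 4-2 of untreated cultures for both genes, and for Tlr7 also the untreated TM- 3-2 and TM+ 4-1 and the sTM-treated TM+ 4-2. Both also lost it with no term for experiment, with all transcript clusters and with 75th percentile centring, Tlr7 in addition with quantile normalisation, with a replicate block, without experiment 3 and without experiment 4, and Tlr13 without experiment 2. Over 33 alternatives the call was made in 19 for Tlr7 and 25 for Tlr13.

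The contrast between the classes was in the same direction in each experiment. The median difference of the endosomal receptors was above that of the surface receptors in 5 of 5 comparisons within experiments, at 0.80 and 0.26 in experiment 2, at 0.49 and -0.22 with sTM and 0.63 and -0.54 without in experiment 3, and at 0.65 and -0.46 with sTM and 0.54 and -0.47 without in experiment 4. The medians over all genes in these comparisons ran from -0.14 to 0.03. These medians rest on few genes and their contrast was not tested. Single members could stand apart from their class, as with Tlr3 at -0.25 among the endosomal and Tlr4 at 0.24 among the surface receptors, neither of them called.

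Among all genes called in the same direction, those nearest to Tlr8 over the 20 sorted arrays were Shmt2, Aldh18a1, Myc, Ssh2 and Ipcef1. Nearness was the root mean square distance of log2 values after each gene was centred on its own mean, and it was 0.31 for Shmt2, which encodes a mitochondrial enzyme of serine and glycine metabolism, and 0.42 for Ipcef1, against a median of 0.95 over 3708 genes. Nearest to Tlr1 were Clec4a1, Aoah, Itga4, Il23a and Ifih1, at distances of 0.30 to 0.34 against a median of 0.81 over 3728 genes. The distance includes the TM+ minus TM- difference by which candidates were chosen, so genes with a like difference lie near in advance. Shared regulation was not tested. Aoah encodes an enzyme that deacylates lipopolysaccharide, Ifih1 a cytosolic sensor of double-stranded RNA and Il23a a subunit of interleukin-23.

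The genes that work with the receptors were read from lists of 55 genes, of which 50 were measured. In TM+ DCs 13 of these were higher and 20 lower than in TM- DCs, with a median of -0.09 against -0.08 over all genes. Of all genes, 18.6% were called higher and 18.7% lower in this comparison, and the counts of the lists below stand beside these shares. Tlr12, a further receptor of mice, was measured and not called over both treatments (-0.24, limma adjusted p = 0.0756). In sTM-treated cultures Tlr12 was called lower in TM+ DCs (-0.48, adjusted p = 0.0115), as were 12.4% of all genes. In untreated cultures its difference was 0.004. Its group means in sorted DCs ran from 5.79 to 6.27.

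Co-receptors of the surface members split, with 2 higher, 2 lower and 2 not called of 6 (median 0.05). Cd14, which hands lipopolysaccharide to Tlr4, differed by -0.87 ± 0.07 (SE, adjusted p = 9.31e-09), and Ly96, the Tlr4 partner also called MD-2, by -0.83 ± 0.24 (adjusted p = 0.00951). Cd180 and its partner Ly86, which form a receptor complex related to that of Tlr4, were higher by 0.64 and 0.89 (adjusted p = 0.00261 and 2.87e-05). The transcript of Tlr4 itself was not called beside them.

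In a list of 7 genes, chaperones and transport factors of endosomal receptors with the exonucleases Pld3 and Pld4, 3 were higher and 0 lower (median 0.16). Over all genes 18.6% were higher. Of the chaperones and transport factors only Unc93b1 was called, and the other genes called were Pld3 and Pld4. The phospholipase D family member Pld4, a lysosomal exonuclease that degrades single-stranded nucleic acids, had the largest difference of these, 2.21 ± 0.12 (SE, adjusted p = 4.76e-11). Unc93b1 differed by 0.30 and the related exonuclease Pld3 by 0.25 (adjusted p = 0.00269 and 0.00149). Lysosomal proteases that cut the receptors split, with Ctsk at 0.57 and Lgmn at 0.43 higher and Ctsl at -0.57 and Ctsb at -0.26 lower of 5 (median 0.11, adjusted p from 0.00105 to 0.045).

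Adaptors divided as well, with 2 higher and 3 lower of 6 (median -0.29). Myd88, which serves every measured receptor but Tlr3, was higher by 0.69 ± 0.12 (SE, adjusted p = 8.43e-05). Ticam1 and Ticam2, which carry the signals of Tlr3 and Tlr4 to interferon genes, differed by -0.74 and -0.59 (adjusted p = 0.0007 and 8.12e-05), and Pik3ap1 by -0.50 (adjusted p = 0.000525).

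Kinases and ubiquitin ligases were lower in 5 and higher in 1 of 12 measured cases (median -0.10). The lower ones included Tbk1 at -1.0, Traf6 at -0.83, Irak2 at -0.79 and Ikbke at -0.71 (adjusted p from 7.13e-08 to 0.00705), of which Tbk1 and Ikbke phosphorylate interferon regulatory factors. Of 5 measured transcription factors, 2 were higher and 3 lower (median -0.28). Irf7, which acts below Tlr7 and Tlr9 and is itself induced by interferon, was lower by 2.62 ± 0.37 (SE, adjusted p = 1e-05) and Irf8 by 0.77, while Irf3 differed by 0.40 and Rela by -0.28.

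Inhibitors of the pathway had the lowest median of the lists, -0.82, with 5 lower and 1 higher of 8. Tnfaip3, a deubiquitinase also called A20, differed by -1.58, Irak3 by -1.33, the NF-kB inhibitor Nfkbia by -1.25 and the phosphatase Dusp1 by -0.99 (adjusted p from 6.73e-09 to 2.18e-06). Tnfaip3, Nfkbia and Dusp1 are also induced by the pathway that they restrain.

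**Figure D3:**
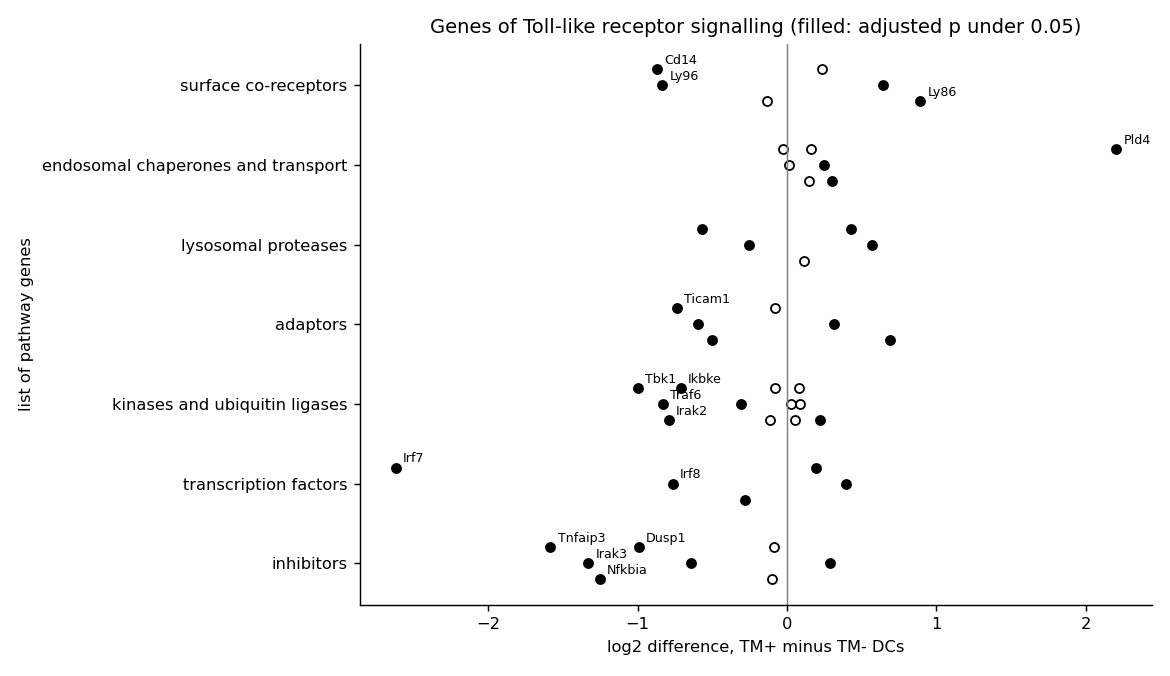
Fitted log2 difference of TM+ minus TM- DCs (x axis) for each measured gene of 7 lists of pathway genes (y axis), filled where the adjusted p is under 0.05 and named where the difference is over 0.7 in size. Pld4 stands highest at 2.21 and Irf7 lowest at -2.62.

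Treatment with sTM was followed by smaller differences between arrays. In sorted DCs, over the TM+ and TM- fractions, 0 of 9 receptors were called (0.015% of all genes, 0.01% higher and 0.00502% lower). There 1607 of the 19938 genes and 1 receptor, Tlr1, had an unadjusted limma p under 0.05. Tlr1 was higher with sTM by 0.74 ± 0.22 on the log2 scale (SE, adjusted p = 0.249), and for the other receptors the difference lay between -0.26 for Tlr2 and 0.44 for Tlr3. Intervals remained wide, from -0.05 to 0.92 for Tlr3 and from -0.20 to 0.74 for Tlr8. Of the 50 pathway genes only Pld4 was called, higher by 0.82 ± 0.13 (SE, adjusted p = 0.0199), and by 1.14 within TM+ DCs (adjusted p = 0.00549).

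Within TM+ DCs 1 receptor was called, Tlr1, which rose with sTM (0.853% of all genes were called, 0.381% higher and 0.471% lower). It read 9.13 and 9.43 with sTM against 7.60 and 7.77 untreated in experiment 3, and 7.76 and 7.73 with sTM against 7.22 and 7.34 untreated in experiment 4. The sTM-treated TM+ arrays from experiment 2, which had no untreated partner, read 8.60 and 8.83. The log2 difference was 1.27 ± 0.30 (SE, limma adjusted p = 0.0494, n = 6 and 4 arrays), with 1.60 in experiment 3 and 0.47 in experiment 4. This call lies at the threshold, and was lost without any one of 16 of the 20 sorted arrays (adjusted p up to 0.166). It was kept without sTM-treated TM- array 2-1 or 3-2 or sTM-treated TM+ array 4-1 or 4-2. In the same comparison 2026 genes had an unadjusted limma p under 0.05, among them Tlr6 with a p of 0.0182. Its log2 difference was 0.48 ± 0.19 (SE, adjusted p = 0.317). Granulocyte markers moved the other way in the same comparison, with 4 of 9 lower and 0 higher (median -1.28).

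Within TM- DCs 0 of 9 receptors and 0% of all genes were called, with 722 genes and 1 receptor at an unadjusted p under 0.05. That receptor was Tlr2, at -0.42 ± 0.18 (SE, unadjusted p = 0.0261, adjusted p = 0.998). Tlr1 differed by 0.21 in TM- DCs, and the difference from TM+ DCs is the interaction given above, which was not called.

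**Figure D4:**
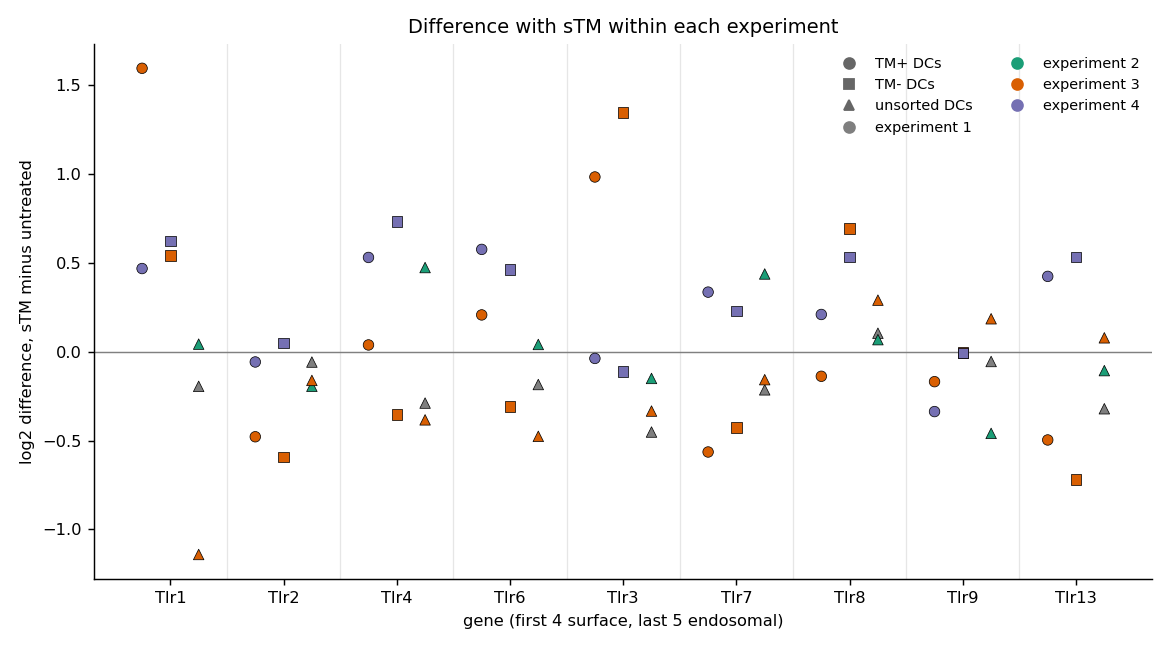
log2 difference of sTM minus untreated cultures (y axis) for each receptor (x axis) within each experiment, with circles for TM+, squares for TM- and triangles for unsorted DCs and colours for experiments. Tlr3 was higher with sTM by 0.98 and 1.35 in the fractions of experiment 3 and close to 0 in those of experiment 4.

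The direction of the difference with sTM changed between experiments 3 and 4 for most receptors, in TM+ DCs, in TM- DCs or in both. Tlr3 read 7.82 and 7.73 in sTM-treated TM+ DCs of experiment 3, against 6.79 and 6.80 untreated, and 8.79 and 8.38 in sTM-treated TM- DCs, against 7.39 and 7.08 untreated. In experiment 4 it read 6.71 and 6.58 in sTM-treated TM+ DCs, against 6.62 and 6.74 untreated, and 6.99 and 6.72 in sTM-treated TM- DCs, against 6.97 and 6.96 untreated. The treated arrays of experiment 3 were thus the high ones, with differences of 0.98 and 1.35 beside -0.04 and -0.11.

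Values of 3 genes that interferon induces are set beside Tlr3. Irf7 differed with sTM by 3.67 in TM+ and 0.82 in TM- DCs of experiment 3 and by -0.67 and -0.46 in those of experiment 4, and Ifit1 by 3.75 and 1.82 and by -0.82 and -0.20. Mx1 differed by 0.98 and 1.30 in experiment 3 and by -0.27 and -0.06 in experiment 4. Ifit1 and Mx1 were picked after values had been seen. The part of these genes in the difference of Tlr3 was not tested.

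Tlr7 and Tlr13 went the other way. With sTM, Tlr7 differed by -0.56 in TM+ and -0.42 in TM- DCs of experiment 3 and by 0.34 and 0.23 in those of experiment 4, and Tlr13 by -0.50 and -0.72 and by 0.42 and 0.53. Tlr1 alone was higher with sTM in all 4 of these comparisons, by 0.47 to 1.60, and Tlr9 alone was lower in all 4, at -0.34 to -0.003. Without experiment 4 Tlr13 was lower with sTM in sorted DCs (-0.62, adjusted p = 0.00589), and without experiment 3 Tlr4 was higher (0.64, adjusted p = 0.00834), so the experiments gave different calls.

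Unsorted DCs of experiment 1 fell into unlike arrays in both treatments. Tlr8 read 9.51 and 9.08 on arrays 1-1 and 1-2 with sTM but 6.05 and 6.59 on arrays 1-3 and 1-4, and 9.01 and 9.01 without sTM but 6.27 and 6.50. Tlr13 read 10.08 and 9.65 with sTM on arrays 1-1 and 1-2 but 7.94 and 8.73 on 1-3 and 1-4, and 10.02 and 9.82 without sTM but 8.86 and 8.97. Tlr4, Tlr6 and Tlr7 were lower on arrays 1-3 and 1-4 as well in both treatments, while those of Tlr9 overlapped. The labels give no difference between these arrays.

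In unsorted DCs 0 of 9 receptors and 0% of all genes were called between sTM-treated and untreated cultures, with 940 genes and 1 receptor at an unadjusted p under 0.05. The receptor was Tlr3, which read 6.27 to 6.81 (median 6.59) with sTM, against 6.48 to 7.39 (median 6.91) untreated. The ranges overlapped, and the log2 difference was -0.35 ± 0.11 (SE, unadjusted p = 0.00421, adjusted p = 0.83, n = 8 arrays each), with -0.45, -0.15 and -0.33 in experiments 1, 2 and 3. Without arrays 1-3 and 1-4 it was -0.37 (adjusted p = 0.122). Tlr3 was thus lower with sTM in unsorted DCs of experiment 3 and higher in both fractions of that experiment. Irf7 differed by -0.50, Ifit1 by -0.66 and Mx1 by -0.05 in those unsorted DCs, and their part in this was not tested.

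Tlr1 in unsorted DCs read 7.66 to 9.05 (median 8.57) with sTM, against 7.78 to 9.49 (median 9.02) untreated, a log2 difference of -0.37 ± 0.18 (SE, adjusted p = 0.999). It came mostly from experiment 3, where it read 8.36 and 8.19 with sTM against 9.37 and 9.46 untreated, while experiment 1 gave -0.19 and experiment 2 gave 0.04. The other receptors differed by -0.20 to 0.14, and Tlr8 had the widest interval, -0.86 to 1.14, over arrays that include 1-3 and 1-4. Without those arrays Tlr8 differed by 0.21 (adjusted p = 0.63).

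Unsorted DCs were also set beside the fractions of the same experiment and treatment, with no test. Over 9 receptors in 3 such settings, the unsorted mean lay between TM+ and TM- DCs in 13 of 27 cases, below both in 11 and above both in 3. In untreated cultures of experiment 3 it lay between them for 7 of 9 receptors, as for Tlr8 at 9.73 in TM+, 8.25 in TM- and 8.49 in unsorted DCs.

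With sTM it lay between them for 4 of 9 receptors in experiment 2 and 2 of 9 in experiment 3. The widest gaps were those of Tlr1, at 9.28 in TM+ and 10 in TM- DCs but 8.28 in unsorted DCs, and of Tlr3, at 7.78 in TM+ and 8.58 in TM- DCs but 6.74 in unsorted DCs, both in sTM-treated cultures of experiment 3. All other gaps outside the range of the fractions were smaller.

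**Figure D5:**
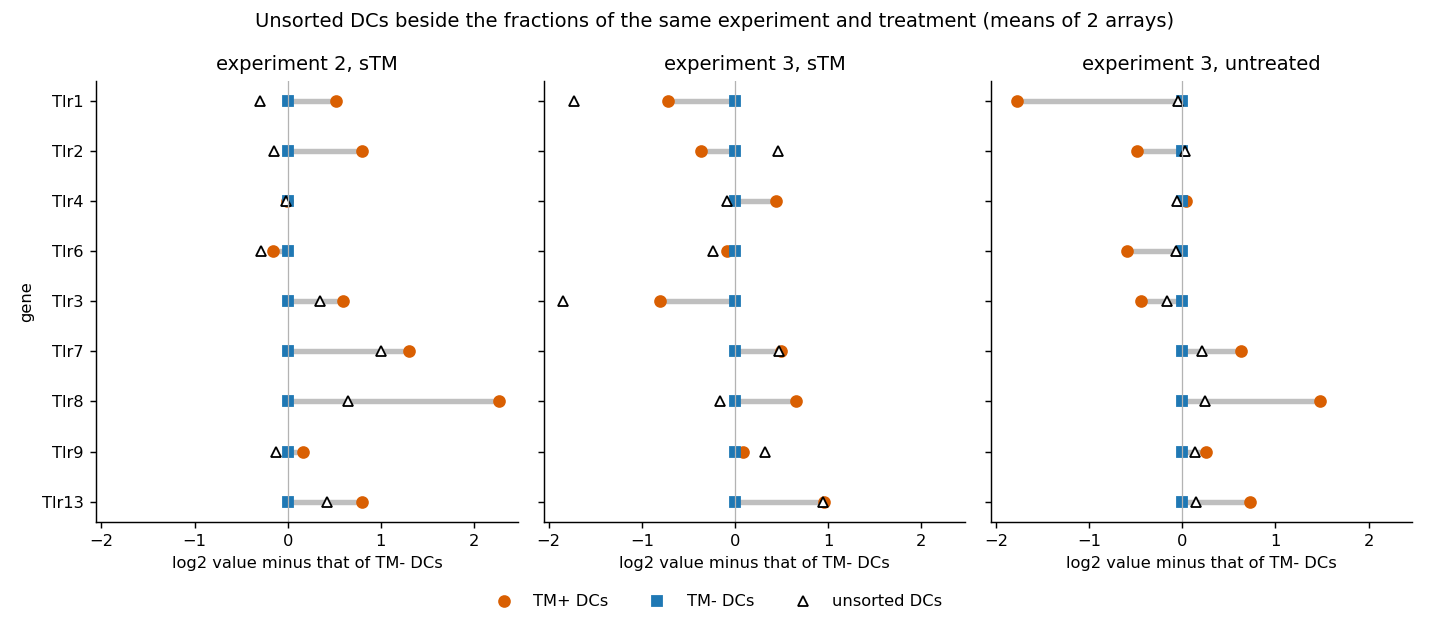
Mean log2 value minus that of TM- DCs (x axis) for TM+, TM- and unsorted DCs of each receptor (y axis) in the 3 settings that hold all of them, each a mean of 2 arrays. The unsorted symbols of Tlr1 and Tlr3 in sTM-treated cultures of experiment 3 lie below both fractions.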

How the data were processed

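RNA of the 36 dendritic cell samples was hybridised to Affymetrix Mouse Gene 1.0 ST arrays. The authors background corrected, normalised and summarised the arrays by RMA and deposited the values as linear intensities per transcript cluster. Whether all arrays were normalised together is not stated in the sources used here. The deposited intensity was taken to log2 with no offset. Of 35556 clusters, 21789 are annotated to 1 symbol, 1621 to several and 12146 to none. The cluster with the highest mean was kept for the 999 genes with more than 1, which left 19938 genes. Depth does not apply to arrays, and their number limits the precision.

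Differences were tested with limma (version 3.58.1, R 4.3.3, statmod 1.5.0), with sorting, treatment and their interaction as terms for the 20 sorted arrays and treatment for the 16 unsorted ones. Experiment was a random block, with an estimated correlation of 0.396 for sorted and 0.375 for unsorted arrays. P-values were adjusted by Benjamini-Hochberg over all genes, with a threshold of 0.05, and the procedure was tested on simulated data. All members were named, and up to 4 genes of each pathway list, those called in the comparison of TM+ with TM- DCs with the largest differences. Members and lists were chosen with earlier results of these data known. Alternatives were the term for experiment, a replicate block, a filter on genes under the 25th percentile, all clusters, centring on the 75th percentile, quantile normalisation, other variance priors, array weights, and leaving out each array and experiment. Start-site windows are from RefSeq, assembly GRCm38.p6. Figures were drawn with matplotlib 3.10.9 under Python 3.11.15.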

Additional observations from a re-analysis of the deposited data

Results flagged for a closer look

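In 2 of the 54 receptor and group combinations of 4 to 8 arrays examined, a single array lay far from the others, where chance alone gives about 1 in 20 for independent arrays. Arrays of the same experiment were alike and the combinations share arrays, so this rate is only a rough guide. Both distant values are from the same array, number 3-2 of TM- DCs from sTM-treated cultures, with 9.78 for Tlr4 (the next array read 10.57) and 8.90 for Tlr6 (the next read 9.19).

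For 4 receptors every sTM-treated array lay on one side of every untreated array in experiment 3 and on the other side in experiment 4, with 2 arrays each, and this difference between experiments was not tested. The share of all genes with such a pattern was not computed, so it cannot be called particular to these receptors. In TM+ DCs, sTM minus untreated was -0.56 in experiment 3 and 0.34 in experiment 4 for Tlr7, -0.14 and 0.21 for Tlr8, and -0.50 and 0.42 for Tlr13. In TM- DCs it was -0.31 and 0.46 for Tlr6, and -0.72 and 0.53 for Tlr13.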

How the results depend on the processing

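No receptor changed direction while called under any alternative. The 6 receptors called between TM+ and TM- DCs held their calls in all 33 alternatives, except Tlr9, called in 32 and lost without experiment 4. The count of called receptors ran from 5 (without experiment 4) to 7 (array weights, or without experiment 3), and from 6 to 7 when each array was left out in turn. In sTM-treated cultures the count of 3 became 5 with each array centred on its 75th percentile, 6 with array weights and 6 without experiment 3, and 3 to 5 when each array was left out. In untreated cultures it was 4 to 6 when each array was left out, where the count was 6. For sTM in sorted DCs the count of 0 became 2 with array weights (Tlr1 0.76, Tlr4 0.45), 1 without experiment 3 (Tlr4) and 1 without experiment 4 (Tlr13), and stayed 0 when any single array was left out. It was 0 throughout for the interaction and for unsorted DCs. Within TM- DCs, Tlr4 was called with array weights (0.60) and without experiment 3 (0.80). The cause of these changes was not tested. With 75th percentile centring the TM+ minus TM- difference had a median of -0.16 over all genes, with 3168 genes called higher and 7174 lower, against -0.08, 3709 and 3729 as deposited, and array weights gave 5357 and 6731.

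Replicate numbers were not shown to pair the arrays, since 10 of 26 same-numbered pairs of sorted arrays deviated together with a correlation over 0.1 (range -0.54 to 0.40). Deviations were taken from the mean of 2 sorted arrays, so both numbers give the same correlation and each value is counted for both. With the replicate block the counts were 6 between TM+ and TM- DCs, 3 in sTM-treated and 5 in untreated cultures, and 0 for treatment in sorted DCs, the interaction and unsorted DCs. Tlr1 with sTM in TM+ DCs was 1.21 with the replicate block (adjusted p = 0.129) and 1.10 with each culture as a block (adjusted p = 0.419). The fit with culture as a block was chosen after seeing the data, as were the values without unsorted arrays 1-3 and 1-4 or with them as a block of their own, where 0 receptors were called. Other single clusters of a receptor gave no value, as each has 1. The number of arrays, and of experiments that hold both treatments, limits the precision.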
